A study of Mus musculus with 178 samples.

Results

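The transcripts described here are 9 genes of the plasma cell programme, immunoglobulin genes left aside: Xbp1, Prdm1, Irf4, Pou2af1, Tnfrsf13b, Tnfrsf17, Sdc1, Mzb1 and Derl3. They were taken by symbol as 9 of the 55450 genes in the deposited counts, and each symbol matched 1 row. Whole blood was drawn from 45 C57BL/6J mice aged 6 to 8 weeks with an orthotopic 4MOSC1 tumor, an oral squamous carcinoma line made with a carcinogen and implanted in the tongue or the buccal mucosa. Every mouse received an antibody against PD-1 (antiPD1, clone RMP1-14), so that no group was untreated or free of tumor, and all tumors came from 1 cell line. Blood was taken before treatment on Day 4 after implantation and during treatment on Days 9, 17 and 24, and RECIST criteria divided the mice into 15 responders and 30 non-responders. The libraries numbered 15, 15, 14 and 15 for responders on Days 4, 9, 17 and 24, and 29, 30, 30 and 30 for non-responders, 178 in all. Single mice are numbered within each response group in the order of their ear tags.

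Plasma cells arise from activated B cells that stop dividing and turn to the secretion of antibody. Irf4 and Prdm1 encode transcription factors that end the B cell programme and begin the secretory one, and Xbp1 encodes the factor that enlarges the endoplasmic reticulum after the sensor Ern1 has spliced its mRNA. Pou2af1 encodes a coactivator of octamer factors in B cells. Tnfrsf13b (TACI) and Tnfrsf17 (BCMA) are receptors for the survival ligands BAFF and APRIL, Sdc1 is the surface proteoglycan CD138, and Mzb1 and Derl3 act in the endoplasmic reticulum, in the assembly of antibody and in the disposal of misfolded protein. Several of these genes are also used outside plasma cells: Irf4, Pou2af1, Tnfrsf13b and Mzb1 by B cells, Xbp1 by myeloid cells, Prdm1 by T cells, and Sdc1 and Prdm1 by epithelium. In bulk blood, fewer cells of a type and less RNA per cell cannot be told apart.

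The Xbp1 protein binds the ER stress response element and the unfolded protein response element, and 2 of the 9 genes have such a sequence in the 250 bases before their start. These promoters are shown because Xbp1 and one of their genes, Pou2af1, moved in opposite directions on Day 9. Promoters were taken from RefSeq (GRCm38.p6), where 8 of the 9 genes matched an entry, and the capitals mark the motif in each.
Derl3, chr10:75893148-75893397, plus strand: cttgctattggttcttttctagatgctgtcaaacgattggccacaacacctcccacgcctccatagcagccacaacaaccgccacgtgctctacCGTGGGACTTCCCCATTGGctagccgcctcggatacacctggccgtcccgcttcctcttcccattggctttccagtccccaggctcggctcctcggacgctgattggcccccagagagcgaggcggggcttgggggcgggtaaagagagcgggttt
Pou2af1, chr9:51213440-51213689, plus strand: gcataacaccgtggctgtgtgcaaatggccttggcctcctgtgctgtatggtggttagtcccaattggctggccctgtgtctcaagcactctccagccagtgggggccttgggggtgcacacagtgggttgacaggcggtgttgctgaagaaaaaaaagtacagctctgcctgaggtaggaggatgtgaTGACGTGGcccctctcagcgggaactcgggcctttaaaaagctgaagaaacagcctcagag
The ER stress response element searched was CCAAT and CCACG with 9 bases of any kind between them, and its match in Derl3 lies on the minus strand, 156 bases before the start. Over 32851 mouse promoters of the same length, 0.113% held this element on either strand. The unfolded protein response element searched was TGACGTGG, which lies 61 bases before the start of Pou2af1 and occurs in 0.563% of the promoters. The interferon-stimulated response element, GAAA and GAAA with 2 bases of any kind between them, which Prdm1 and interferon regulatory factors can bind, had a match on the minus strand of the Tnfrsf17 promoter, 101 bases before its start, and occurs in 2.98% of promoters. The octamer ATGCAAAT (in 1.6% of promoters) and the ETS-IRF composite of GGAA and GAAA with 2 bases between them (in 2.3%) were not among the letters of the 8 promoters. Each match is a description of letters and was not tested for binding.

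Total counts per library ranged from 26058958 to 82208665, of which the genes of haemoglobin, the defining product of red cells, took 80.7% ± 4.07 (SD, n = 178). The other genes were left with 4535330 to 22174668 counts. The Day 24 library of non-responder 29 stood apart, with a TMM scaling factor of 0.0848 beside 0.266 in the next lowest library. It held the highest Xbp1 level and the lowest Mzb1, Sdc1, Irf4, Tnfrsf13b and Pou2af1 levels of all 178 libraries, and its summed mature B cell genes were at 253 CPM, against 636 to 830 CPM in the other 29 libraries of its group. Values without it are given for Xbp1, for the mean of Pou2af1, for the shares of all genes on Day 24 and beside some of the list counts. With and without it, the Day 24 mean of non-responders was 3.68 and 3.73 log2 CPM for Irf4, against 3.66 on Day 4. It was 2.60 and 2.66 for Mzb1, against 2.72 on Day 4, and 0.73 and 0.79 for Sdc1, against 0.89. The ear tags form a series of 4 digits (11 responders, 7 non-responders) and a series of 3 digits (4 responders, 23 non-responders), treated as a possible batch that was partly confounded with response.

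On the scale of deposited TPM, which allows for gene length, the 9 genes spanned a wide range of levels. Pou2af1 had 0.21, 8.27 and 24.5 TPM as its lowest, median and highest level over the 178 libraries. Next came Tnfrsf13b with a median of 4.28 TPM (0.12 to 13.7), Mzb1 with 4.14 (0.11 to 11.7), Xbp1 with 2.83 (0.64 to 11.2) and Irf4 with 1.15 (0.03 to 3.01). The remaining 4 genes had medians of 0.235 TPM for Sdc1 (0.01 to 1.47), 0.105 for Prdm1 (0.02 to 0.51), 0.09 for Derl3 (0 to 0.38) and 0.02 for Tnfrsf17 (0 to 0.14). Most steps of this order held within single libraries: Pou2af1 was above Tnfrsf13b in 178 of 178 libraries, Mzb1 above Xbp1 in 146, Xbp1 above Irf4 in 178, Irf4 above Sdc1 in 176, Sdc1 above Prdm1 in 162 and Derl3 above Tnfrsf17 in 157. The neighbours Tnfrsf13b and Mzb1 exchanged places often (Tnfrsf13b higher in 103 libraries and lower in 74), as did Prdm1 and Derl3 (Prdm1 higher in 109 and lower in 61).

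**Figure D1:**
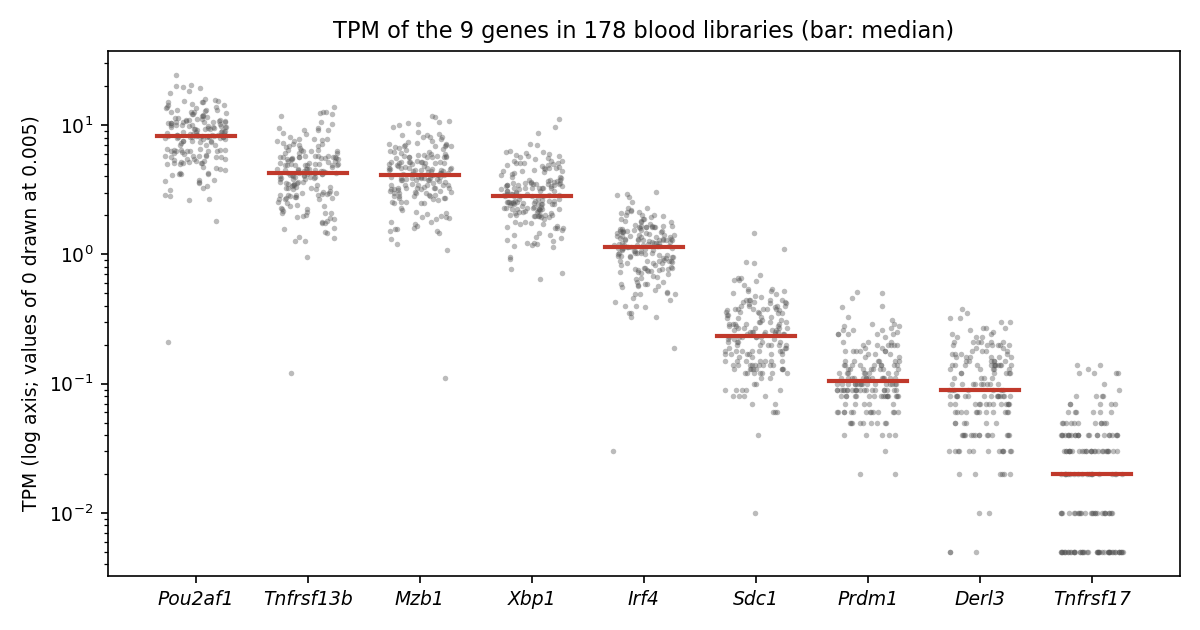
Deposited TPM of the 9 genes (log axis) in 178 blood libraries, each point 1 library and each red bar the median; values of 0 are drawn at 0.005 TPM. Medians fall from 8.27 TPM for Pou2af1 to 0.02 TPM for Tnfrsf17, and the clouds of neighbouring genes overlap.

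Behind these levels stood a median of 1985 counts per library for Pou2af1, 820.5 for Tnfrsf13b, 688.5 for Irf4, 610 for Xbp1, 308.5 for Mzb1, 84.5 for Sdc1 and 68 for Prdm1. Derl3 had a median of 7 counts, with none in 3 libraries, and Tnfrsf17 a median of 1 count, with none in 48 libraries and no library above 11. After the filter on low counts, 7 of the 9 genes were tested in every comparison, Derl3 only between response groups on Day 24, in the changes of the non-responders and in the differences of changes, and Tnfrsf17 in none. The receptor that is most restricted to plasma cells was thus close to the limit of detection in blood, with 344 counts in all libraries together.

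Tests used edgeR's quasi-likelihood F test on counts, with Benjamini-Hochberg adjustment over all genes tested, and a gene was called at an adjusted p of at most 0.05. Between responders and non-responders, 1 of 7 genes was called on Day 4, Xbp1, which was higher in responders, where 7.42% of all 12620 genes tested were called, 6.4% higher and 1.01% lower. No member of 7 tested was called on Day 9, where 13.4% of all genes were (9.43% higher, 3.95% lower), none of 7 on Day 17 (1.99% of all genes, 0.799% higher and 1.19% lower) and none of 8 on Day 24 (8.55% of all genes, 3.41% higher and 5.14% lower). Without the library of non-responder 29, still none of 8 was called on Day 24, whereas the share of all genes was 21.4%, with 12.6% higher and 8.84% lower, so that the commoner direction turned. On Days 9, 17 and 24, 1, 4 and 0 members had an unadjusted p under 0.05 (25.1%, 20.6% and 24.3% of all genes). DESeq2 called 0, 1 and 0 (13.2%, 4.48% and 13.5% of all genes by DESeq2). The changes from Day 4 involved more of the genes. In responders, 2 of 7 genes tested rose and 3 fell by Day 9, where 27.7% of all genes were called (13.5% higher, 14.2% lower). By Day 17, 5 fell and none rose (25.6% of all genes, 12.2% higher and 13.4% lower), and by Day 24, 1 rose and none fell (17.4%, 7.44% higher and 9.94% lower), or 1 rose and 1 fell with the mouse as a block (19.8% of all genes called). In non-responders, 2 of 8 genes tested rose and 4 fell by Day 9, where 50.8% of all genes were called (23.3% higher, 27.5% lower). By Day 17, 1 rose and 5 fell (46.1% of all genes, 21.9% higher and 24.2% lower), and by Day 24, 2 fell and none rose (48.7%, 23.8% higher and 24.8% lower). These 2 counts were the same with non-responder 29 left out, where 49.7% of all genes were called (22.8% higher, 26.8% lower). The 3 changes within a response group share the Day 4 libraries. No difference between the response groups in their changes was called among 8 genes tested to Day 9, Day 17 or Day 24, where 0%, 0.351% and 3.76% of all genes were called (on Day 24, 1.67% higher and 2.1% lower; on Day 17, 0.351% higher and 0% lower). Without the library of non-responder 29, the share of all genes on Day 24 was 1.12% (0.877% higher, 0.248% lower), and no member was called. For the changes to Days 9, 17 and 24, unadjusted p values under 0.05 were found for 2, 0 and 2 members (5.25%, 10.2% and 18.4% of all genes). DESeq2 called 0, 0 and 1 (0%, 0.647% and 6.39% of all genes by DESeq2).

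**Figure D2:**
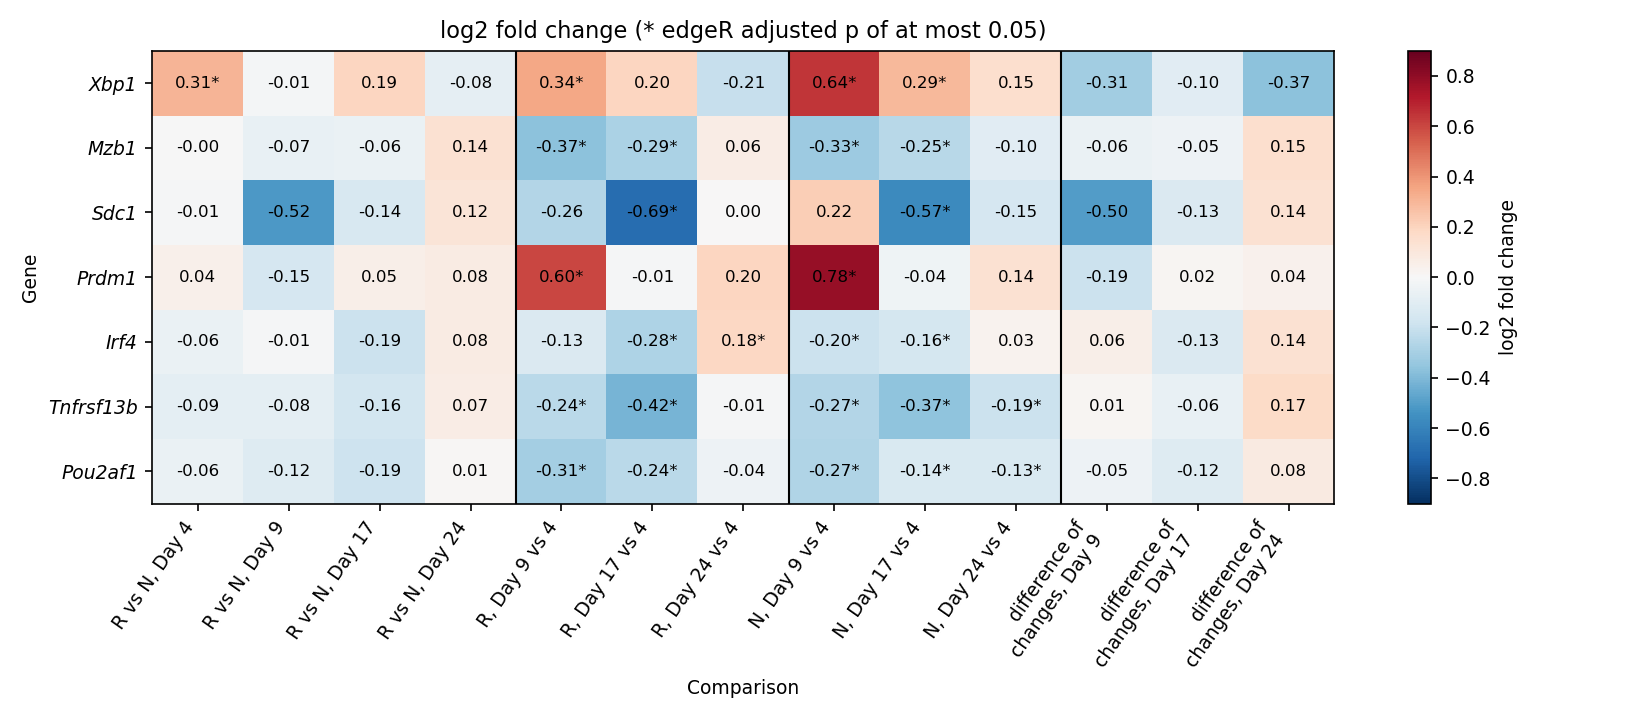
Fitted log2 fold changes of 7 genes (Derl3 and Tnfrsf17 are left out for low counts) in 13 comparisons of responders (R) and non-responders (N), the colour and the number giving the log2 fold change and the asterisk an adjusted p of at most 0.05. Xbp1 and Prdm1 have red squares with asterisks for Day 9 against Day 4, Mzb1, Tnfrsf13b and Pou2af1 have blue ones for Days 9 and 17, and a single asterisk stands among the comparisons of response groups, for Xbp1 on Day 4.

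Among the transcription factors, Xbp1 (chr11:5520659-5525893, plus strand, protein coding) was the gene called between the response groups before treatment. On Day 4 its lowest, median and highest levels were 3.32, 3.55 and 3.92 log2 CPM in the 15 responders and 3.00, 3.25 and 3.69 in the 29 non-responders. The groups overlapped, but each of the 15 responders lay above the median of the non-responders. The fitted difference was 0.31 on the log2 scale (SE 0.061, edgeR adjusted p = 0.003), a fold of 1.24. It was 0.29 with the ear tag series as a covariate (SE 0.071, edgeR adjusted p = 0.00972), while the mice of each series alone gave 0.27 (3 digits, edgeR adjusted p = 0.267) and 0.29 (4 digits, edgeR adjusted p = 0.165), without a call in these smaller sets, in which 0% of all genes were called. The Day 4 levels by series were 3.54 ± 0.15 (SD, n = 4) in responders and 3.27 ± 0.20 (n = 22) in non-responders with 3 digits, and 3.59 ± 0.20 (n = 11) and 3.31 ± 0.12 (n = 7) with 4 digits. On deposited TPM, where haemoglobin is included, the Day 4 difference turned to -0.49 and was not called (Wilcoxon test, adjusted p = 0.0867). The median of all genes was -0.65 on that scale, and Xbp1 was at 0.17 relative to it.

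Markers of several cell types were called in the same Day 4 comparison, and their part in the Xbp1 difference was not tested. Of the 5 monocyte markers, 2 were higher in responders, Ly6c2 by 0.39 and Fn1 by 0.46 on the log2 scale (edgeR adjusted p = 0.0376 and 0.0434). Their summed level spanned 87.3 to 237 CPM in responders (median 153) and 81.6 to 171 CPM in non-responders (median 124). Neutrophil markers were higher in 3 of 5 cases, red cell markers in 3 of 6 and proliferation genes in 4 of 5 tested, S100a8 by 0.70 (edgeR adjusted p = 0.00356) and Slc4a1 by 1.23 (edgeR adjusted p = 0.00335) on the log2 scale. Of 14 mature B cell genes, 2 were lower in responders and none higher, and none of 6 T cell markers or of 4 plasmacytoid dendritic cell markers tested was called. Beside these counts, 6.4% of all genes were higher in responders and 1.01% lower.

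By Day 9 Xbp1 was higher in both groups, at 3.50, 3.86 and 4.29 log2 CPM (lowest, median and highest) in responders and 3.39, 3.90 and 4.41 in non-responders. It rose from Day 4 by 0.34 on the log2 scale in responders (SE 0.080, edgeR adjusted p = 0.000715), with 13 of 15 animals higher. In non-responders it rose by 0.64 (SE 0.079, edgeR adjusted p = 9.52e-12), with 29 of 29 higher, and these were folds of 1.27 and 1.56. Responders and non-responders overlapped almost wholly on that day, with a difference of -0.014 (edgeR adjusted p = 0.95). The difference of the 2 rises, -0.31, was not called (SE 0.12, edgeR adjusted p = 0.862). The monocyte markers rose over the same days in non-responders, 5 of 5, with a summed level of 169 to 408 CPM (median 241), and 3 of 5 rose in responders, with 161 to 370 CPM (median 232). Neutrophil markers also rose, 5 of 5 in non-responders with a median change of 0.89 on the log2 scale, against 0.69 for the monocyte markers, and 2 of 5 in responders, with medians of 0.42 and 0.52. Their summed level had medians of 194 and 242 CPM on Day 4 in non-responders and responders and of 357 and 400 CPM on Day 9, and the part of both lists in the rises of Xbp1 and Prdm1 was not tested. Beside these list counts, 23.3% of all genes rose by Day 9 in non-responders and 13.5% in responders.

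Xbp1 then returned towards its first level. On Day 17 it ranged from 2.95 to 4.07 log2 CPM in responders (median 3.76) and from 3.23 to 4.06 in non-responders (median 3.59), and it remained above Day 4 in non-responders by 0.29 (SE 0.080, edgeR adjusted p = 0.00158, higher in 26 of 29 mice). In responders the change was 0.20 (edgeR adjusted p = 0.0673), and responders exceeded non-responders by 0.19 (SE 0.065, edgeR adjusted p = 0.0821), which was not called. With the ear tag series as a covariate this Day 17 difference was 0.098 (edgeR adjusted p = 0.675). On Day 24 the medians were 3.37 and 3.33 log2 CPM, and the changes from Day 4 were -0.21 in responders (edgeR adjusted p = 0.0571, or 0.0444 with the mouse as a block, where it was called, lower in 11 of 15 mice) and 0.15 in non-responders (edgeR adjusted p = 0.104, higher in 19 of 29), or 0.048 without the library of non-responder 29 (edgeR adjusted p = 0.475). Responders differed from non-responders by -0.081 on that day (edgeR adjusted p = 0.759), or by 0.031 without it (edgeR adjusted p = 0.718). With the ear tag series as a covariate and every library, this Day 24 difference was -0.22 (edgeR adjusted p = 0.402). The difference of the 2 changes was -0.37 (SE 0.12, edgeR adjusted p = 0.0622). It was called by DESeq2 (-0.38, adjusted p = 0.0328) and with the ear tag series in the edgeR model (-0.48, adjusted p = 0.0122), and it was -0.27 (edgeR adjusted p = 0.116) without the library of non-responder 29. The series alone gave -0.32 (3 digits, edgeR adjusted p = 0.741) and -0.68 (4 digits, edgeR adjusted p = 0.0832).

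**Figure D3:**
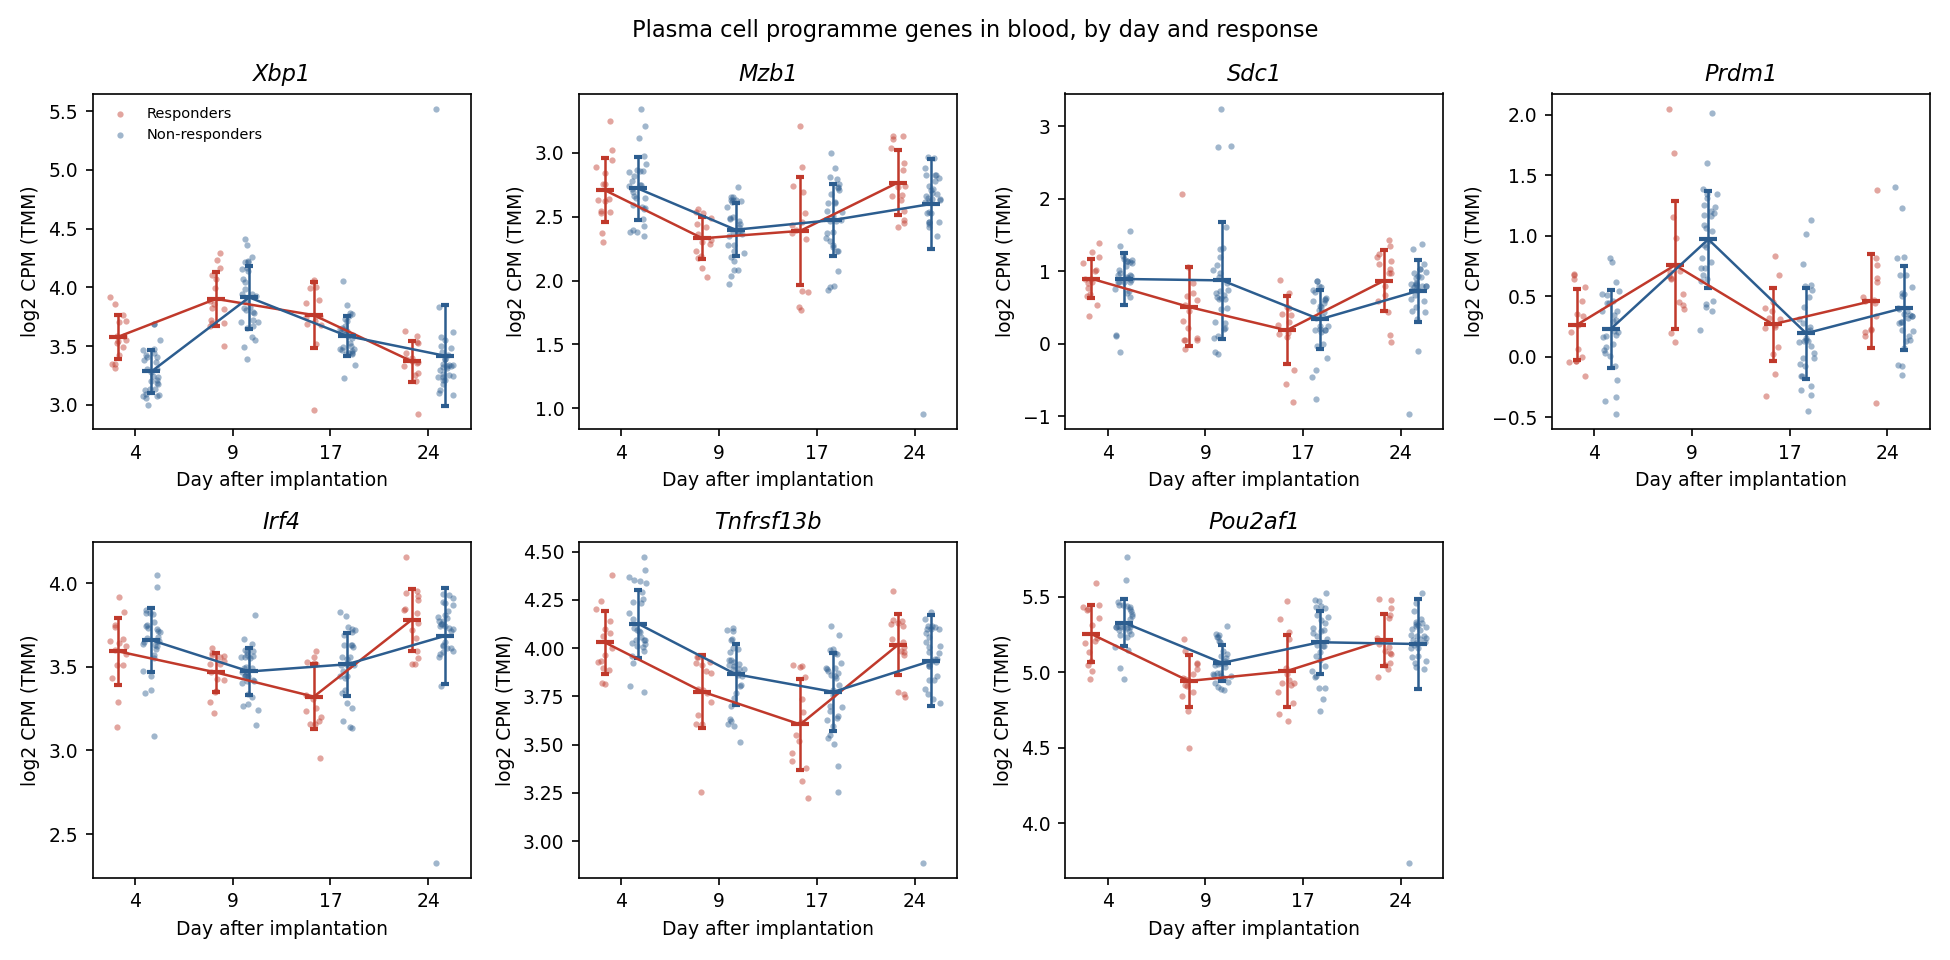
Levels of 7 genes in log2 CPM after TMM scaling, by day after implantation, for responders (red) and non-responders (blue); points are libraries, and lines join group means with bars of 1 SD. Mean Xbp1 and Prdm1 are highest on Day 9, mean Mzb1, Irf4, Tnfrsf13b and Pou2af1 lie below Day 4 on Days 9 and 17, and the single far point on Day 24 is the library of non-responder 29, at 5.52 for Xbp1.

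Prdm1 (chr10:44437177-44528501, minus strand, protein coding), which encodes the repressor Blimp1, was raised on Day 9. On Day 4 its lowest, median and highest levels were -0.16, 0.26 and 0.69 log2 CPM in responders and -0.48, 0.21 and 0.82 in non-responders. On Day 9 they were 0.12, 0.65 and 2.05 in responders and 0.22, 1.00 and 2.01 in non-responders. The days overlapped within each group, with the higher part of Day 9 outside the range of Day 4. Prdm1 rose by 0.60 in responders (SE 0.15, edgeR adjusted p = 0.00175, with 11 of 15 animals higher) and 0.78 among non-responders (SE 0.094, edgeR adjusted p = 3.58e-12, higher in 28 of 29), folds of 1.52 and 1.72. By Day 17 the changes were -0.014 and -0.042, with medians of 0.29 and 0.13 log2 CPM, and no response group difference was called on any day. The rise to Day 9 differed between the ear tag series. Mean Prdm1 in responders went from 0.24 to 1.40 log2 CPM with 3 digits (n = 4) and from 0.27 to 0.52 with 4 digits (n = 11). In non-responders the means went from 0.31 to 1.07 with 3 digits and from -0.034 to 0.63 with 4 digits. This dependence on the series was not tested.

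Of 5 epithelial markers, 3 were tested in the changes to Day 9, and 3 rose in non-responders and 2 in responders, Krt13 by 1.56 and 2.82 and Cdh1 by 0.86 and 0.66 on the log2 scale (edgeR adjusted p = 0.000399, 0.00324, 3.91e-06 and 0.0265). In the same comparisons 23.3% and 13.5% of all genes rose. The sum of Krt5, Krt14, Krt13, Epcam and Cdh1 spanned 0.808 to 112 CPM in non-responders on Day 9 (median 5.29) and 1.61 to 35.9 CPM in responders (median 3.22), against 0.839 to 8.74 CPM (median 2.40) and 0.801 to 7.20 CPM (median 1.46) on Day 4. Of these markers, Krt5 was at 0 in 62 and Krt14 in 72 of the 178 libraries. The 4 highest Prdm1 levels of Day 9 were 2.05 in responder 2, 2.01 in non-responder 12, 1.68 in responder 1 and 1.60 in non-responder 8, with epithelial sums of 35.9, 38.6, 17.5 and 112 CPM. Without the 5 Day 9 libraries whose epithelial sum reached 30 CPM, an alternative chosen after seeing the data, the rise of Prdm1 was 0.44 in responders (edgeR adjusted p = 0.0113) and 0.71 in non-responders (edgeR adjusted p = 7.47e-11), so that both calls stood.

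Irf4 (chr13:30749226-30766976, plus strand, protein coding) moved the other way, and less. Its median was 3.63 log2 CPM in responders (3.14 to 3.92) and 3.67 in non-responders (3.09 to 4.05) on Day 4, and 3.52 (3.23 to 3.61) and 3.47 (3.15 to 3.81) on Day 9. On Day 17 it was 3.28 in responders (2.95 to 3.60) and 3.52 in non-responders (3.13 to 3.83). The ranges overlapped throughout, with responders the lower group on Day 17. In non-responders Irf4 fell by 0.20 to Day 9 (SE 0.047, edgeR adjusted p = 0.000187, lower in 23 of 29 mice) and by 0.16 to Day 17 (SE 0.047, edgeR adjusted p = 0.00313, lower in 19 of 29). In responders it fell by 0.28 to Day 17 (SE 0.065, edgeR adjusted p = 0.00136, lower in 12 of 14) and was at -0.13 on Day 9 (edgeR adjusted p = 0.132). Responders differed from non-responders by -0.19 on Day 17 (SE 0.062, edgeR adjusted p = 0.069; DESeq2 adjusted p = 0.045). Within the ear tag series, the Day 17 means were 3.44 log2 CPM in responders and 3.57 in non-responders with 3 digits. With 4 digits, the series of most responders, they were 3.28 and 3.34. With the series as a covariate, 0 of all 12520 genes tested were called on Day 17.

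On Day 24 Irf4 was above its Day 4 level in responders, from 3.51 to 4.15 log2 CPM with a median of 3.82, and it rose by 0.18 (SE 0.064, edgeR adjusted p = 0.0368, higher in 13 of 15 mice). This call was lost when every gene with a count entered the adjustment (edgeR adjusted p = 0.066). Non-responders had a median of 3.74 log2 CPM on Day 24 and a change of 0.034 (edgeR adjusted p = 0.58), and the difference of the changes was 0.14 (SE 0.081, edgeR adjusted p = 0.369). Of 14 mature B cell genes, 5 also rose and 1 fell in responders by Day 24, where 7.44% of all genes rose and 9.94% fell. Their summed level spanned 655 to 925 CPM on Day 4 (median 735) and 656 to 892 CPM on Day 24 (median 774), and their part in the rise of Irf4 was not tested.

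Pou2af1 (chr9:51213708-51240080, plus strand, protein coding), the most abundant of the genes, fell in both groups on treatment. On Day 4 it had a median of 5.23 log2 CPM in responders (4.96 to 5.59) and 5.30 in non-responders (4.96 to 5.76). On Day 9 the medians were 4.95 (4.50 to 5.22) and 5.05 (4.88 to 5.31). The days overlapped in part, with most mice lower on Day 9. It fell by 0.31 in responders (SE 0.071, edgeR adjusted p = 0.000731, lower in 13 of 15 animals) and by 0.27 in non-responders (SE 0.049, edgeR adjusted p = 1.02e-06, lower in 27 of 29). Day 17 was also below Day 4, by 0.24 in responders, where Pou2af1 fell in 11 of 14 mice (SE 0.072, edgeR adjusted p = 0.00967), and with a change of -0.14 in non-responders, lower in 17 of 29 mice (SE 0.049, edgeR adjusted p = 0.0153).

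By Day 24 the Pou2af1 change was -0.13 in non-responders (SE 0.049, edgeR adjusted p = 0.0172) and -0.044 in responders (edgeR adjusted p = 0.702). The non-responder mean on Day 24 was 5.19 log2 CPM, or 5.24 without the library of non-responder 29, against 5.33 on Day 4. The call stood without that library. Responders lay below non-responders on Day 9 by a difference of -0.12 (SE 0.044, edgeR adjusted p = 0.0729) and on Day 17 by -0.19 (SE 0.071, edgeR adjusted p = 0.121), neither of which was called. Within the ear tag series, the Day 17 means were 5.25 log2 CPM in responders and 5.24 in non-responders with 3 digits. With 4 digits they were 4.91 and 5.05.

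Of the receptors, Tnfrsf13b (chr11:61126755-61149372, plus strand, protein coding) fell in both groups on Days 9 and 17. Its lowest, median and highest levels on Day 4 were 3.81, 4.00 and 4.38 log2 CPM in responders and 3.77, 4.09 and 4.47 in non-responders. On Day 17 they were 3.22, 3.59 and 3.91 in responders and 3.26, 3.83 and 4.11 in non-responders. The median of responders on Day 17 lay below the lowest Day 4 level of either group, although the ranges overlapped. Tnfrsf13b fell by 0.42 in responders (SE 0.071, edgeR adjusted p = 2.11e-05, lower in 13 of 14 animals) and by 0.37 in non-responders (SE 0.047, edgeR adjusted p = 2.02e-10, lower in 28 of 29), folds of 0.749 and 0.776. It had already fallen by Day 9, by 0.24 (SE 0.070, edgeR adjusted p = 0.00669, lower in 13 of 15) and by 0.27 (SE 0.047, edgeR adjusted p = 6.88e-07, lower in 25 of 29).

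By Day 24 Tnfrsf13b was back at 4.03 log2 CPM in responders (3.75 to 4.30), with a change from Day 4 of -0.012 (edgeR adjusted p = 0.929). Non-responders had a median of 3.96 and remained lower than on Day 4, with a change of -0.19 (SE 0.047, edgeR adjusted p = 0.000464, lower in 24 of 29 mice). The test of the difference itself gave 0.17 (SE 0.082, edgeR adjusted p = 0.243), so that the groups were not shown to differ in this return.

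Tnfrsf17 (chr16:11313812-11320074, plus strand, protein coding) was too low for a test and is given by its counts. Over the non-responders of Days 4, 9, 17 and 24 it had 45, 54, 71 and 92 counts in all, and it was at 0 in 11 of 29, 7 of 30, 6 of 30 and 2 of 30 libraries. On the CPM scale this was 0.0210 (exact Poisson 95% interval 0.0153 to 0.0281) on Day 4 and 0.0541 (0.0436 to 0.0664) on Day 24, intervals that cover counting error only and do not overlap. In single non-responders the scaled level on Day 24 was above that of Day 4 in 21 of 29 mice and below it in 6. Responders had 21, 13, 22 and 26 counts, with 5 of 15, 9 of 15, 3 of 14 and 5 of 15 libraries at 0, and 0.0307 (0.0190 to 0.0469) CPM on Day 4 and 0.0327 (0.0214 to 0.0479) on Day 24. No test of these counts across mice was run, and no difference between the response groups can be read from them.

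The ligands of both receptors and the BAFF receptor Tnfrsf13c were measured beside them. In non-responders Tnfsf13, which encodes APRIL, rose by 1.07 on the log2 scale to Day 9 (SE 0.12, edgeR adjusted p = 7.27e-13) and Tnfsf13b, which encodes BAFF, by 0.73 (SE 0.11, edgeR adjusted p = 3.81e-09). Tnfrsf13c fell by 0.46 over the same days (SE 0.059, edgeR adjusted p = 4.35e-11), so that 3 of 3 genes were called, 2 higher and 1 lower. The same 3 were called on Day 17, at 0.65, 0.49 and -0.35, and Tnfrsf13c alone on Day 24, at -0.37. The shares of all genes called in non-responders were 50.8%, 46.1% and 48.7% on Days 9, 17 and 24, and 27.7% in responders on Day 9. In responders Tnfsf13b rose by 0.58 to Day 9 (SE 0.19, edgeR adjusted p = 0.0154) and Tnfrsf13c fell by 0.45 (SE 0.085, edgeR adjusted p = 5.67e-05), while Tnfsf13 was at 0.35 (edgeR adjusted p = 0.243). Before treatment, Tnfsf13 was higher in responders by 0.66 (SE 0.15, edgeR adjusted p = 0.00355). No difference of changes was called for the 3 genes on any day, the value for Tnfsf13 on Day 9 being -0.73 (edgeR adjusted p = 0.862).

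Sdc1 (chr12:8771323-8793715, plus strand, protein coding) was lowest on Day 17. Its lowest, median and highest levels were 0.39, 0.89 and 1.39 log2 CPM in responders and -0.11, 0.94 and 1.56 in non-responders on Day 4. On Day 17 they were -0.80, 0.28 and 0.88 in responders and -0.76, 0.41 and 0.87 in non-responders. The highest Day 17 level of each group thus lay below the Day 4 median of that group. Sdc1 fell by 0.69 in responders (SE 0.17, edgeR adjusted p = 0.00218, lower in 14 of 14 animals) and by 0.57 in non-responders (SE 0.15, edgeR adjusted p = 0.00076, lower in 24 of 29), folds of 0.621 and 0.672. On Day 24 the changes were 0.0023 and -0.15 and were not called.

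On Day 9 the Sdc1 values depended on a few libraries. The 4 highest were 3.24 log2 CPM in non-responder 8, 2.73 in non-responder 21, 2.71 in non-responder 23 and 2.06 in responder 2, and their epithelial sums were 112, 50.2, 45.0 and 35.9 CPM. These libraries and that of non-responder 12 (Sdc1 1.61, epithelial sum 38.6 CPM) held the 5 highest epithelial sums of all libraries, whose median was 2.68 CPM. With every library the change of Sdc1 from Day 4 was 0.22 in non-responders (SE 0.14, edgeR adjusted p = 0.187), although 19 of 29 mice were lower, and -0.26 in responders (SE 0.16, edgeR adjusted p = 0.237). Without these 5 libraries it was -0.24 in non-responders (SE 0.096, edgeR adjusted p = 0.0344) and -0.48 in responders (SE 0.14, edgeR adjusted p = 0.00755), so that the sign turned in non-responders and both changes were called. The difference between the response groups on Day 9 moved from -0.52 (SE 0.27, edgeR adjusted p = 0.23) to -0.23 (SE 0.13, edgeR adjusted p = 0.276).

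Of the genes of the secretory apparatus, Mzb1, a cofactor of antibody folding, followed Pou2af1 and Tnfrsf13b. On Day 4 it had a median of 2.64 log2 CPM in responders (2.30 to 3.25) and 2.72 in non-responders (2.35 to 3.35). On Day 9 the medians were 2.32 (2.02 to 2.56) and 2.40 (1.98 to 2.73). On that day the highest responder lay below the Day 4 median of the responders. Mzb1 fell by 0.37 in responders (SE 0.11, edgeR adjusted p = 0.00551, lower in 14 of 15 animals) and by 0.33 in non-responders (SE 0.063, edgeR adjusted p = 4.1e-06, lower in 26 of 29), and on Day 17 it was lower by 0.29 and 0.25, where it fell in 12 of 14 responders (edgeR adjusted p = 0.0396, or 0.0605 with every gene in the adjustment) and in 22 of 29 non-responders (edgeR adjusted p = 0.000524). Day 24 was called in neither group, with changes of 0.063 and -0.10, and the response groups were not shown to differ on any day, the largest difference being 0.14 on Day 24 (SE 0.071, edgeR adjusted p = 0.221).

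Derl3 (chr10:75893413-75895941, plus strand, protein coding) had 0 to 34 counts per library. In non-responders the changes from Day 4 were 0.14, -0.037 and 0.22 for Days 9, 17 and 24, with adjusted p of 0.526, 0.896 and 0.306 by edgeR, and responders differed from non-responders by -0.20 on Day 24 (SE 0.26, edgeR adjusted p = 0.701). The sum over all libraries was 1422 counts, so that changes below the size of these errors were not detectable at this depth.

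The 9 genes did not vary between mice as 1 block. After the mean of each group of response and day had been subtracted, Pou2af1, Mzb1, Tnfrsf13b and Irf4 had positive correlations with each other over the 178 libraries. Pearson's r was 0.67 between Mzb1 and Tnfrsf13b, 0.65 between Pou2af1 and Mzb1 and 0.62 between Pou2af1 and Irf4, and 0.59, 0.53 and 0.47 with non-responder 29 on Day 24 left out. It was lower between Irf4 and Tnfrsf13b (0.50), Tnfrsf13b and Pou2af1 (0.49) and Mzb1 and Irf4 (0.43), and these were 0.35, 0.34 and 0.25 without it. Mzb1 had a like value with Sdc1, at 0.45 (0.39 without that library, Spearman's rho 0.51). Xbp1 went against these genes, with r of -0.54 to Pou2af1 and -0.46 to Irf4, which shrank to -0.30 and -0.19 without that library. Several values differed between the 4-digit series, which holds that library, and the 3-digit series. They were 0.66 and 0.23 for Tnfrsf13b and Pou2af1, 0.56 and 0.28 for Mzb1 and Irf4, and 0.61 and 0.26 for Mzb1 and Sdc1. Xbp1 and Pou2af1 had -0.69 and -0.29, whereas Pou2af1 and Mzb1 had 0.64 and 0.63. The libraries share scaling, mice and depth, and these values are descriptions without a test.

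**Figure D4:**
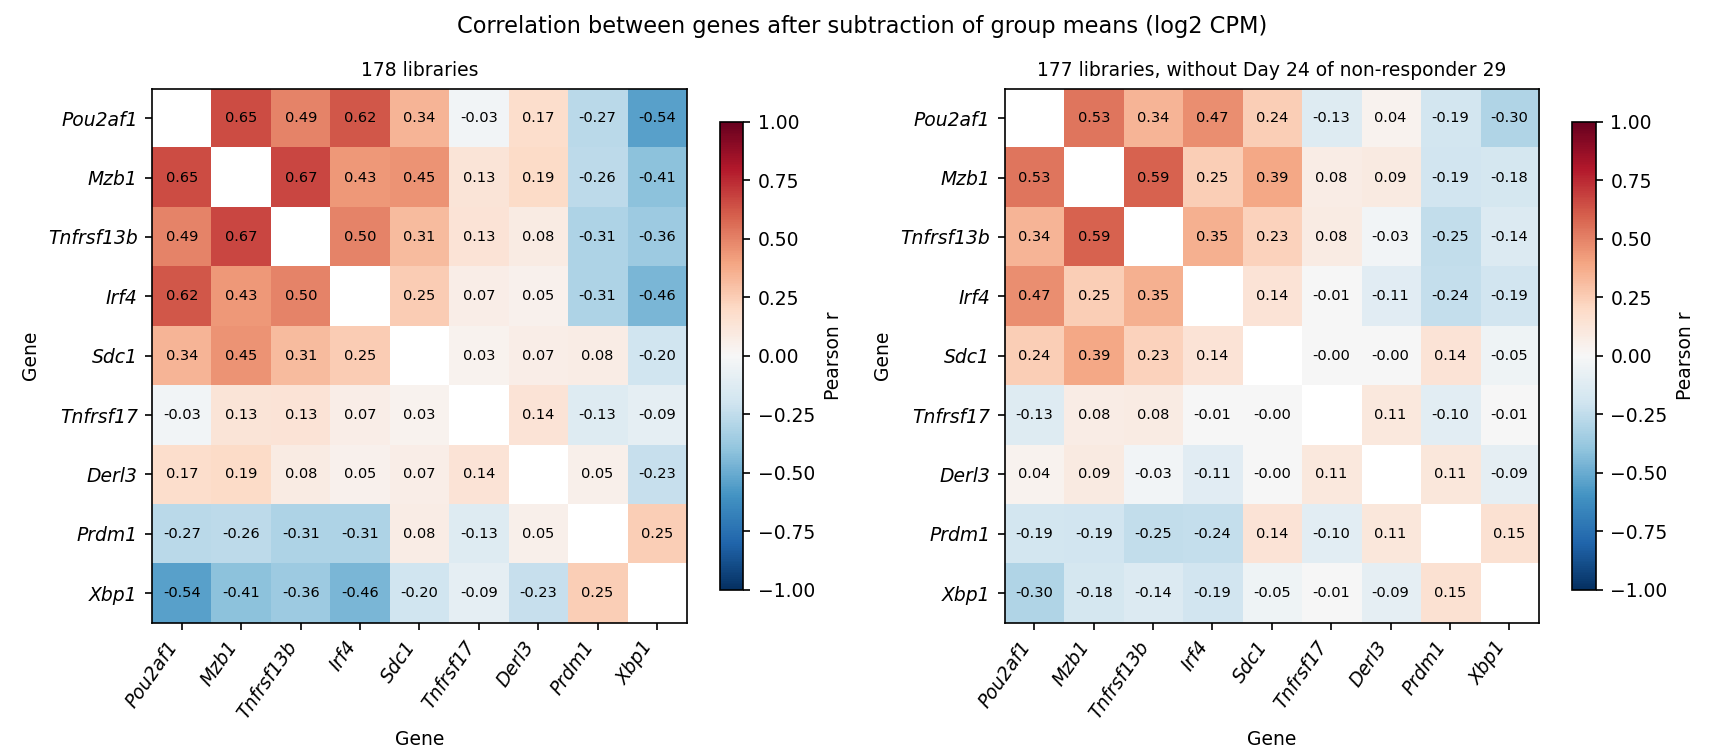
Pearson's r between the 9 genes over all 178 libraries (left) and with non-responder 29 on Day 24 left out (right), from log2 CPM less the mean of each group of response and day. The block of Pou2af1, Mzb1, Tnfrsf13b and Irf4 is red in both panels, and the blue values of Xbp1 are paler on the right, as from -0.54 to -0.30 with Pou2af1.

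Summed markers of cell types gave the same division. The summed mature B cell genes had r of 0.84 with Pou2af1, 0.78 with Mzb1, 0.77 with Tnfrsf13b and 0.67 with Irf4, or 0.76, 0.71, 0.72 and 0.50 without the library of non-responder 29. Immunoglobulin constant genes with Jchain had r of 0.84 with Mzb1 (0.79 without that library). Xbp1 had r of 0.69 with monocyte markers (0.68 without) and -0.60 with mature B cell genes (-0.35 without). Prdm1 had r of 0.58 with epithelial markers (0.59 without), and Sdc1 had 0.40 (0.41 without), with a Spearman's rho of 0.16. Sdc1 had like values with other lists, at 0.43 with immunoglobulin constant genes and Jchain (0.35 without, rho 0.48). With mature B cell genes Sdc1 was at 0.40 (0.32 without, rho 0.44). Tnfrsf17 and Derl3, with few counts, had no value beyond 0.22 in size with the 8 lists plotted.

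**Figure D5:**
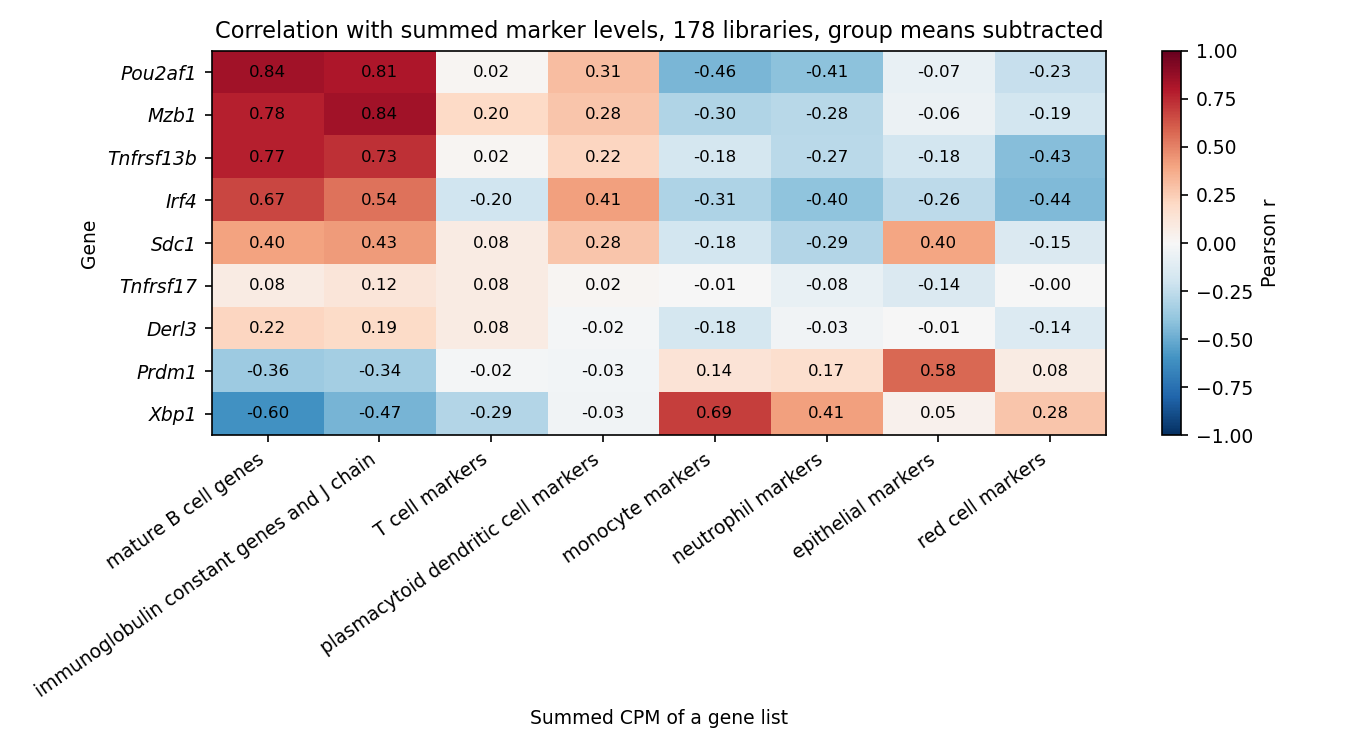
Pearson's r of each gene with the summed CPM of 8 marker lists over 178 libraries, after subtraction of the mean of each group of response and day. Pou2af1, Tnfrsf13b and Irf4 are highest with mature B cell genes (0.84, 0.77 and 0.67), Mzb1 with immunoglobulin constant genes (0.84), Xbp1 with monocyte markers (0.69) and Prdm1 with epithelial markers (0.58).

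The genes most like each member over all tested genes, by the same measure, fell along these lines. The first 3 were Cd79b (r = 0.85), Fcrla (0.84) and Cd79a (0.80) for Mzb1, Blnk (0.87), Fcrl1 (0.79) and Gga2 (0.79) for Pou2af1, Kmo (0.79), Fcrla (0.76) and Bank1 (0.75) for Tnfrsf13b, and Foxp1 (0.75), Pax5 (0.75) and Snx30 (0.74) for Irf4. Cd79a and Cd79b encode the signalling chains of the B cell receptor, and Pax5 the factor that maintains B cell identity. For Xbp1 they were D1Ertd622e (0.76), Cln8 (0.75) and Rnpep (0.74), of which Rnpep alone stayed close without the library of non-responder 29 (0.73, against 0.57 and 0.59). For Sdc1 they were Sfn (0.57), Lamb3 (0.54) and Ehd2 (0.54), where Sfn and Lamb3 are genes of stratified epithelium, and for Prdm1 Ankk1 (0.67), AA467197 (0.66) and Asprv1 (0.66). For Tnfrsf17 they were Igha (0.37), Jchain (0.37) and Gm36738 (0.31), the first 2 being parts of secreted IgA, and for Derl3 Tmem214 (0.39), Bcl2l2 (0.38) and Rrp36 (0.35), all weak in sparse counts.

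The immunoglobulin constant genes moved in both directions. They resemble each other, so that reads shared between them make the value of a single one uncertain. Of 12 immunoglobulin constant genes tested, Jchain among them, 6 rose and 5 fell by Day 9 in non-responders, 6 rose and 4 fell by Day 17, and 6 rose and 3 fell by Day 24. Of all genes, 50.8%, 46.1% and 48.7% were called in non-responders on these days. Ighg1 rose by 1.17, 2.38 and 2.50 on the log2 scale on the 3 days (edgeR adjusted p = 1.6e-09, 1.17e-24 and 1.91e-26), and Jchain, which joins IgM and IgA chains for secretion, by 1.33 on Day 24 (SE 0.13, edgeR adjusted p = 4.32e-14). Ighm, the heavy chain of naive B cells and of IgM, fell by 0.48 on Day 9 (SE 0.056, edgeR adjusted p = 5.69e-13). Responders had 4 higher and 4 lower by Day 9, 5 and 3 by Day 17, and 6 and 0 by Day 24, when Ighg1 rose by 2.29 (edgeR adjusted p = 2.08e-06) and Jchain by 1.12 (edgeR adjusted p = 0.000563). In responders 27.7%, 25.6% and 17.4% of all genes were called on the 3 days.

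Mature B cell genes and T cell markers fell on the same days as these members. Of 14 mature B cell genes, 12 fell and 1 rose by Day 9 in non-responders and 10 fell and none rose by Day 17, Cd79a by 0.61 and 0.53 on the log2 scale (edgeR adjusted p = 2.27e-14 and 3.21e-11). In responders 7 fell and 1 rose by Day 9 and 9 fell and 1 rose by Day 17, with Cd79a at -0.66 and -0.69 (edgeR adjusted p = 1.15e-06 and 1.36e-06). In non-responders 50.8% and 46.1% of all genes were called on Days 9 and 17, and in responders 27.7% and 25.6%. The median change of the mature B cell genes by Day 9 was -0.22 in non-responders and -0.17 in responders, where the median of all genes was -0.014 and 0.0078. Of 6 T cell markers, 6 fell by Day 9 in each group, with a median change of -0.63 in non-responders and -0.57 in responders, and 6 and 5 fell by Day 17, with medians of -0.43 and -0.32. The summed level of the mature B cell genes in non-responders was 691 to 1007 CPM on Day 4 and 519 to 777 CPM on Day 9, that of the T cell markers was 66.9 to 124 CPM and 43.6 to 68.6 CPM, and the part of both lists in the falls of Pou2af1, Mzb1, Tnfrsf13b and Irf4 was not tested. By Day 24, 5 of the 14 mature B cell genes were higher than on Day 4 and 1 lower in responders, where 17.4% of all genes were called. In non-responders 1 was higher and 5 lower, where 48.7% of all genes were called. The difference of these changes was called for 2, both higher, and for none once non-responder 29 was left out. Pax5 was then at 0.31 (edgeR adjusted p = 0.061) and Ciita at 0.096 (edgeR adjusted p = 0.58). With the ear tag series as a covariate and every library, Pax5 was called (0.41, edgeR adjusted p = 0.00692) and Ciita was not (0.18, edgeR adjusted p = 0.188). Between response groups on Day 17, 4 of the 14 mature B cell genes were lower in responders, among them Ciita (-0.27) and Pax5 (-0.31, edgeR adjusted p = 0.0281 for both), and their summed level was 504 to 782 CPM in responders and 564 to 823 CPM in non-responders. The share of all genes that were lower was 1.19%. With the ear tag series as a covariate none of the 14 was called on Day 17, when 0 of all 12520 genes tested were called, and Ciita and Pax5 had differences of -0.11 and -0.12.

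The other lists cover the rest of the secretory programme. Of 24 other plasma cell genes, of which 22 or 23 were tested, 2 were higher in responders on Day 4, Ell2 (1.02, edgeR adjusted p = 0.00335) and Tent5c (1.13, edgeR adjusted p = 0.00442), an elongation factor of transcription and a poly(A) polymerase, and both were higher on Day 9 as well (0.66 and 0.79, edgeR adjusted p = 0.000366 and 9.93e-05). The red cell markers were higher on the same days, 3 of 6 on Day 4 and 6 of 6 on Day 9, and their part in these values was not tested. On Day 17, 2 others were higher in responders, the chaperones Manf (0.26, edgeR adjusted p = 0.0348) and Hsp90b1 (0.32, edgeR adjusted p = 0.0486), and none on Day 24, with 0 lower on each of the 4 days. With the ear tag series as a covariate, Manf and Hsp90b1 were at 0.15 and 0.024 on Day 17 and were not called, while Ell2 and Tent5c were still called on Days 4 and 9, and 1 of the list was lower on each of these days. Once non-responder 29 was left out, 4 of the list were higher in responders on Day 24, where 12.6% of all genes were higher. In the main fit 6.4%, 9.43%, 0.799% and 3.41% of all genes were higher in responders on Days 4, 9, 17 and 24. In the changes from Day 4, 1 rose and 4 fell by Day 9 in responders and 6 rose and 3 fell in non-responders, and by Day 24 none rose and 6 fell in responders, while 3 rose and 8 fell in non-responders. Of all genes, 27.7% were called in responders and 50.8% in non-responders by Day 9, and 17.4% and 48.7% by Day 24. Creld2 fell by 0.38 and Manf by 0.33 in responders by Day 24 (edgeR adjusted p = 0.00279 and 0.00589).

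Of 29 genes of protein folding and export in the endoplasmic reticulum, 3, 5, 4 and 2 were higher in responders on Days 4, 9, 17 and 24 and none lower. Of all genes, 6.4%, 9.43%, 0.799% and 3.41% were higher on these days and 1.01%, 3.95%, 1.19% and 5.14% lower. With the ear tag series as a covariate the counts of the list were 6, 4, 0 and 0, with 1 lower on Day 4. In that model 10.7%, 5.89%, 0% and 0.313% of all genes were higher on the 4 days and 2.73%, 1.57%, 0% and 0.666% lower. Leaving out non-responder 29 gave 8 higher on Day 24, where 12.6% of all genes were higher and 8.84% lower. Red cell markers were higher on Days 4 and 9, as given for the other plasma cell genes, and their part was not tested here either. The first by p on Day 4 were Sec61g (1.16, edgeR adjusted p = 0.003), Srp14 (0.54, edgeR adjusted p = 0.00302) and Sec61b (0.41, edgeR adjusted p = 0.0051), parts of the translocation channel and of the signal recognition particle. Over time the sensor Ern1, which splices Xbp1 mRNA, rose together with Xbp1 on Day 9, by 0.65 in responders (SE 0.099, edgeR adjusted p = 2.25e-06) and by 0.73 in non-responders (SE 0.072, edgeR adjusted p = 8.19e-16). Of the list as a whole, 8 genes rose and 6 fell by Day 9 in non-responders and 3 rose and 6 fell in responders. In these comparisons 50.8% of all genes were called in non-responders and 27.7% in responders, and 48.7% and 17.4% by Day 24. By Day 24, 11 fell and 6 rose in non-responders and 8 fell and 1 rose in responders, with Calr at -0.37 and -0.41 (edgeR adjusted p = 3.68e-07 and 0.000489) and Pdia3 at -0.31 and -0.32 (edgeR adjusted p = 3.55e-09 and 0.00169). On Day 24 the difference of changes was called for 2 genes of this list, Canx (0.24, edgeR adjusted p = 0.0353) and Sec61g (-1.09, edgeR adjusted p = 0.0391), and for 2 of the other plasma cell genes, Tent5c (-1.25, edgeR adjusted p = 0.0357) and Pdia4 (0.27, edgeR adjusted p = 0.0479). In the library of non-responder 29 the summed folding and export genes were at 2812 CPM against 431 to 631 CPM in the rest of its group, and the other plasma cell genes at 20206 CPM against 885 to 2072 CPM. Such sums lean on single genes. Over all libraries, Sec61g had the highest median count of the folding and export genes (9236.7, next Calr with 2089). Tent5c had that of the other plasma cell genes (57041, next Hsp90b1 with 2193). Red cell markers were also high in this library, at 10607800 against 489455 to 1333830 CPM of TMM-scaled library size, and proliferation genes were at 182 against 7.80 to 16.7 CPM. Without this library none of the 4 differences was called, at 0.23 for Canx (edgeR adjusted p = 0.0747), -0.66 for Sec61g (edgeR adjusted p = 0.2), -0.62 for Tent5c (edgeR adjusted p = 0.268) and 0.25 for Pdia4 (edgeR adjusted p = 0.0938). With the ear tag series as a covariate and every library, Sec61g (-1.39, edgeR adjusted p = 0.00335) and Tent5c (-1.46, edgeR adjusted p = 0.00421) were called. Canx (0.21, edgeR adjusted p = 0.0597) and Pdia4 (0.22, edgeR adjusted p = 0.174) were not called in that fit.

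The levels of single mice were also compared between days. For the 9 genes, Pearson's r between the deviations of the same mice on 2 days lay between -0.40 and 0.54. These are descriptions over the mice that have both libraries, with no test.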

How the data were processed

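RNA of 178 whole blood libraries from 45 mice was measured by sequencing of polyadenylated RNA (SMARTer mRNA-Seq kit). Per the submitters' processing notes the reads were aligned with STAR to mm10. The versions, the counting tool and the annotation are not given in the sources used here. The authors deposited estimated counts per gene, which need not be whole and were rounded before tests, and TPM per gene symbol, scaled over all genes with haemoglobin included. All gene identifiers matched GENCODE M21 (GRCm38), the source of the positions. Promoter sequences came from RefSeq (GRCm38.p6).

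Tests used edgeR 4.0.16 in R 4.3.3, with filterByExpr, TMM, glmQLFit, glmQLFTest and Benjamini-Hochberg adjustment over all genes, called at an adjusted p of at most 0.05. Response groups were compared within each day, days within each response group in 1 fit, and the difference of changes as the interaction over all libraries. Levels are log2 CPM with a prior count of 2. Alternatives used DESeq2 1.42.0, a Wilcoxon test on TPM, other filters, scalings and sets of libraries, and the mouse as a block. On simulated counts with known changes between response groups on Day 9, edgeR recovered 49% of genes changed 1.5-fold and 97% of those changed 2-fold. In the difference of changes to Day 24, edgeR recovered 9% and 54%. These rates belong to the simulated counts, and whether they hold for the 9 genes was not tested. In the measured counts, Xbp1 was called between response groups on Day 4 at a fold of 1.24.

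The Day 17 library of non-responder 24 is labelled as that of a responder, whereas the 3 other labels of the mouse say non-responder, and it was counted with the non-responders. Each mouse gave up to 4 libraries, known by its ear tag, so that the mouse pairs them. The mean correlation of their deviations from the group means was -0.058 to 0.128 over the pairs of days. Not analysed here are 1 library of a non-responder (Day 4) and 1 of a responder (Day 17). The members, the gene lists and the tests were chosen with earlier results of these data known. Named genes are the 9 members, the 3 genes most like each, and up to 3 genes of smallest p per list in a comparison. Intervals on counts cover counting error only. The lists were members, other plasma cell genes, folding and export genes, BAFF and APRIL genes, mature B cell genes, immunoglobulin constant genes, proliferation genes and markers of plasmacytoid dendritic cells, T cells, monocytes, neutrophils, epithelium and red cells.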

Additional observations from a re-analysis of the deposited data

How the results depend on the processing

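The fits of counts changed few calls of the members, while some values that were not called moved. With the ear tag series as a covariate, the Xbp1 difference between response groups was -0.077, 0.098 and -0.22 on Days 9, 17 and 24. In the main fit it was -0.014, 0.19 and -0.081. Of 98 log2 fold changes, none turned sign at a call under DESeq2, the ear tag covariate, every gene in the adjustment or haemoglobin removed before scaling, and calls were gained in 3, 1, 0 and 0 and lost in 0, 0, 2 and 0. Counting the Day 17 library of non-responder 24 with the responders changed 0 of 76 calls, and leaving out the Day 24 library of non-responder 29 changed 0 of 56. With the mouse as a replicate block, the number called in responders on Day 24 went from 1 to 2 of 7 (19.8% of all genes), as Xbp1 was then called (-0.21, edgeR adjusted p = 0.0444 with the block), and no other call changed. The call of Xbp1 on Day 4 became 0 of 7 genes with 3-digit tags alone, with 4-digit tags alone and with a 1.5-fold threshold added (0%, 0% and 4.21% of all genes). DESeq2 called 1 gene on Day 17 (Irf4) and 1 in the difference of changes to Day 24 (Xbp1), where edgeR called 0, and 3 in place of 2 in non-responders on Day 24 (Xbp1 at 0.18, DESeq2 adjusted p = 0.0473, 48.1% of all genes), and the ear tag covariate also called Xbp1 in the difference of changes (9.55% of all genes). With every gene in the adjustment, 0 in place of 1 was called in responders on Day 24 (6.03% of all genes). Without the 5 Day 9 libraries of high epithelial sum, chosen after seeing the data, Sdc1 in non-responders on Day 9 turned to -0.24. The Wilcoxon test on TPM differed most: it called 6 members on Day 4 and 7 on Day 9 between response groups (85.3% and 89.3% of all genes), 0 in responders on Days 9, 17 and 24 (1.41%, 0.458% and 0.458%), and 2 on Day 9 and 6 on Day 24 in non-responders (13.2% and 60%). On that scale, which includes haemoglobin, the median of all genes shifted by -0.65 on Day 4, -0.61 on Day 9 and -0.13 on Day 17 between response groups, by 0.20 in responders on Day 17, and by -0.32 and -0.39 in non-responders on Days 17 and 24, and 9907 of the 9950 genes called on Day 4 were lower. Several signs turned, and those with a call by either test were Xbp1 -0.49 and Prdm1 -0.33 on Day 4 between groups, Pou2af1 0.035 in responders on Day 17, and in non-responders Xbp1 -0.040 on Day 17 and Xbp1 -0.32 and Irf4 -0.40 on Day 24. Relative to the median gene these were 0.17, 0.32, -0.16, 0.28, 0.073 and -0.010. Of 21 correlations between members, 10 moved beyond their 95% interval without the library of non-responder 29, and 8 did with Spearman's rho. Depth limits Derl3 and Tnfrsf17, with medians of 7 and 1 counts.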
